A study of Mus musculus with 12 samples.

Results

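Autophagy is the process by which a cell wraps part of its cytoplasm in a double membrane, the autophagosome, and delivers it to the lysosome. The ULK kinase complex and the class III phosphatidylinositol 3-kinase (PI3K) complex start it, ATG9 vesicles and ATG2 lipid transfer proteins supply membrane, and 2 ubiquitin-like conjugation systems attach ATG8 proteins such as LC3 and GABARAP to the growing membrane. Receptors such as p62 bind both ubiquitin or another mark on the cargo and the attached ATG8 proteins. In skeletal muscle autophagy clears damaged mitochondria and protein aggregates, and mitochondrial stress and low energy are among its known triggers.

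Transcripts of 36 genes of this machinery were examined in C2C12 myotubes, the fused, multinucleated cells that a mouse myoblast line forms when serum is reduced. Genes were selected by symbol from the known autophagy machinery. No measured value enters the rule, but earlier results of these data were known when the genes were chosen. They cover 11 initiation genes, 5 membrane supply genes, 15 conjugation genes and 5 receptors. All 36 were among the 15113 genes of the deposited table and all 36 passed the filter on low counts, which kept 12730 genes. Myotubes of passages 2-5, differentiated in 2% horse serum, were exposed for 16 h to 20 μM BAM15 in DMSO or to vehicle. A 3′ QuantSeq kit, which reads the end of each transcript, was used for 6 libraries of either condition. BAM15 is a mitochondrial protonophore, a compound that carries protons across the inner mitochondrial membrane and so uncouples respiration from ATP production. No genotype differed between the conditions, and the labels do not say whether the 6 libraries of a condition came from separate cultures, so p-values measure the spread between these libraries, which may be technical.

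Total counts were 15299135 to 18866728 reads in vehicle libraries and 13983725 to 18751780 in BAM15 libraries. On the first principal component, which held 65.5% of the variance, the 2 conditions lay apart, and on the second (16.4%) BAM15 libraries 1 to 3 lay apart from BAM15 libraries 4 to 6. No label names a batch for these numbers, so the changes were also computed within numbers 1 to 3 and within numbers 4 to 6. All 10 myotube markers examined were present. Of these 2 rose (Myog and Acta1), 3 fell (Ckm, Mybph and Mymk) and 5 did not pass, with summed normalized counts of 299330 to 340310 in vehicle and 303430 to 395640 in BAM15 libraries, of which Acta1 was the largest part (means of 127950 and 175770). Of 6 markers of undifferentiated or dividing myoblasts, 5 fell (Pax7, Mki67, Top2a, Ccnb1 and Cdk1) and 1 rose (Myf5, log2 fold change 1.69). Their summed normalized counts were 5180 to 6072 in vehicle and 2258 to 2834 in BAM15 libraries. Top2a was the largest part of these sums (means of 3241 and 1175). Of 5 markers of blood, endothelial, fat and epithelial cells (Ptprc, Cd68, Pecam1, Adipoq and Epcam), the table lists only Cd68, which encodes a lysosomal membrane protein abundant in macrophages. It rose, and its normalized counts were 9.74 to 18.5 in vehicle and 52.5 to 75.6 in BAM15 libraries. The part of these shifts in the results below was not tested. RNA came from whole cell lysate, so fewer cells of a type and less RNA per cell cannot be told apart.

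Of the receptors 3 of 5 rose and 0 fell, most initiation genes did not pass, and as many conjugation genes rose as fell. BAM15 raised 11 of the 36 transcripts and lowered 6 at an adjusted p-value below 0.01 (edgeR quasi-likelihood test, Benjamini-Hochberg adjustment over all tested genes), and 19 did not pass. Among all tested genes 22.0% rose and 20.3% fell by the same rule, so the share of members that rose lay somewhat above this background and the share that fell somewhat below it, differences that were not tested. The median log2 fold change was 0.11 over the members and 0.02 over all tested genes. Past 3 thresholds together (this adjusted p-value, over 50 normalized counts on average and over 2-fold) 2 members were higher, Sqstm1 and Gabarapl1, against 3.70% of all genes, and 0 were lower, against 3.58%. By edgeR 10 members were lower at an unadjusted p-value below 0.05, and DESeq2 and limma-voom also placed 0 members more than 2-fold lower. The 2 conditions did not overlap for 10 members that were higher in BAM15 (17.1% of all genes) and for 5 that were lower (17.0%). Reads of the 36 genes made up 0.366% to 0.388% of all counts in vehicle libraries and 0.459% to 0.490% in BAM15 libraries. Sqstm1 alone accounted for 0.0462% to 0.0517% and 0.125% to 0.146%, and the other 35 genes for 0.320% to 0.339% in vehicle and 0.331% to 0.355% in BAM15 libraries, ranges that overlapped.

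**Figure D1:**
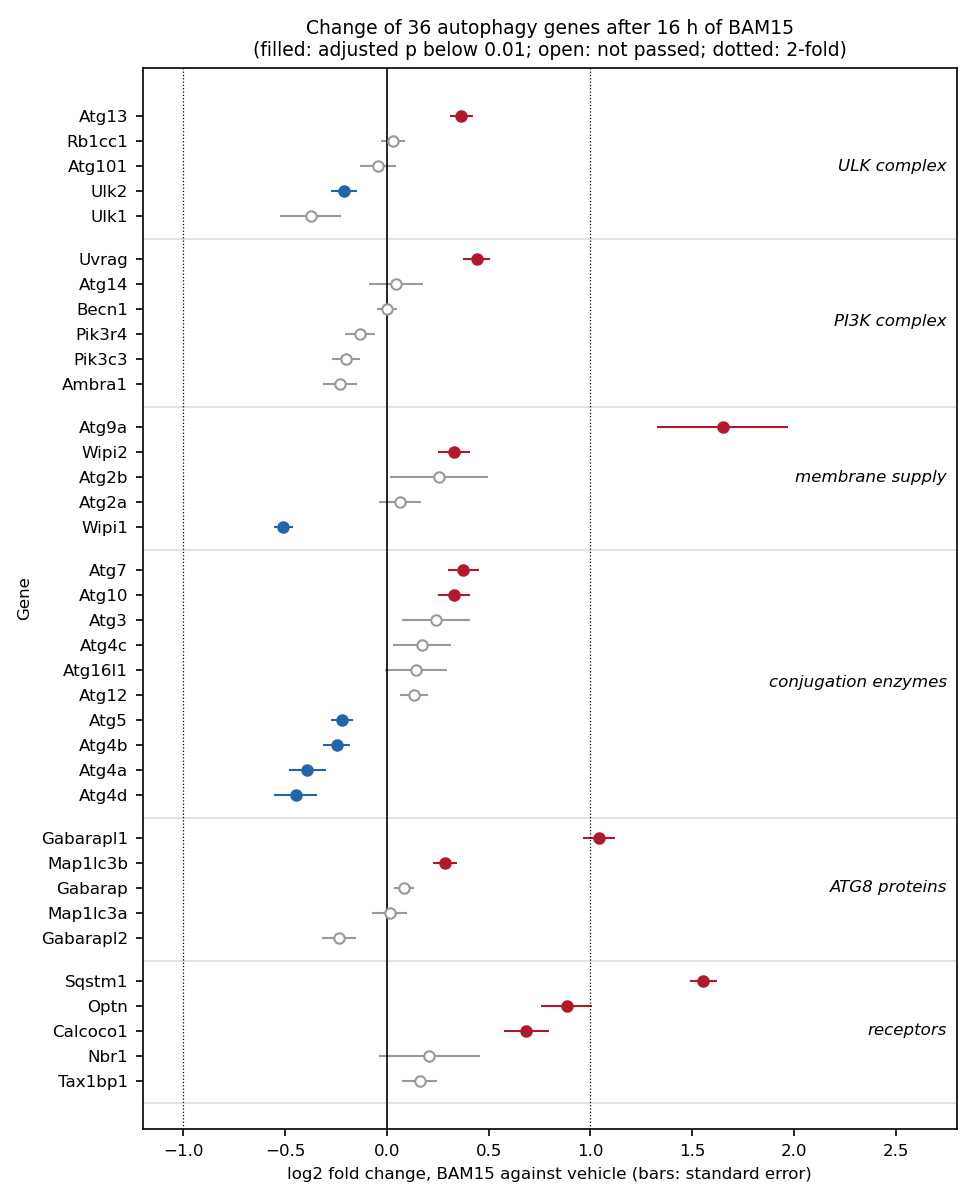
Log2 fold change of each of the 36 genes (x axis, BAM15 against vehicle, 6 libraries per condition) by complex or step, with bars for the standard error. Filled points passed an adjusted p-value of 0.01 (11 higher in red, 6 lower in blue), open points did not, and only Atg9a, Sqstm1 and Gabarapl1 lie to the right of the dotted 2-fold line.

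Of the 5 receptors among the 36 genes, 3 rose (Sqstm1, Optn and Calcoco1) and 0 fell, with a median log2 fold change of 0.69. Among all tested genes 22.0% rose and 20.3% fell. Of 15 other selective receptors, counted further on, 4 rose and 5 fell, with a median log2 fold change of -0.10. By edgeR, DESeq2 and limma-voom alike 0 of the 5 receptors were lower, also at an unadjusted p-value below 0.05. Sqstm1 encodes p62, the receptor that gathers ubiquitinated proteins into condensates and that also binds KEAP1, the repressor of the NRF2 antioxidant pathway. Its normalized counts were 7686, 8099 and 8560 (lowest, median and highest of 6 vehicle libraries) and 20618, 23905 and 26096 in BAM15 libraries. Every BAM15 library was more than 2-fold above the highest vehicle library. Sqstm1 rose 2.94-fold, a log2 fold change of 1.55 with a standard error of 0.07 (edgeR, adjusted p = 7.29e-11). It stood at 1.64 in numbers 1 to 3 alone and at 1.44 in numbers 4 to 6 alone. Sqstm1 lies at chr11:50199366-50210827 on the minus strand of GRCm38 (GENCODE M21). Mrnip, a gene on the other strand, has exons over 230 of the final 400 bases of the Sqstm1 transcript, where 3′ reads fall, and the strand used for counting is not given in the sources used here. Mrnip itself had a mean of 91.7 ± 11.2 normalized counts in vehicle and 75.7 ± 4.29 in BAM15 libraries (SD, n = 6 each), far below the counts of Sqstm1.

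Optn encodes optineurin, a receptor for ubiquitinated mitochondria and bacteria that takes part in PINK1-Parkin mitophagy. Normalized counts of Optn were 276, 314 and 374 in vehicle and 429, 602 and 703 in BAM15 libraries (lowest, median and highest). No BAM15 library reached down to the vehicle range, and the 3 highest values were those of BAM15 libraries 1 to 3. The increase was 1.85-fold, with a log2 fold change of 0.88 ± 0.13 (SE, n = 6 per condition; edgeR, adjusted p = 2.80e-05). Calcoco1 encodes a receptor for the endoplasmic reticulum and the Golgi. Normalized counts of Calcoco1 were 3270, 4151 and 4531 in vehicle and 4860, 6847 and 7196 in BAM15 libraries, again without overlap. It rose 1.61-fold, with a log2 fold change of 0.69 ± 0.11 (SE, n = 6 per condition; edgeR, adjusted p = 9.08e-05). All 3 of these increases also passed within numbers 1 to 3 and within numbers 4 to 6.

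The remaining receptors did not pass over the 12 libraries. Tax1bp1, a receptor for ubiquitinated aggregates, had a log2 fold change of 0.16 ± 0.08 (SE), with 4 of 6 BAM15 libraries above the vehicle mean. Within numbers 1 to 3 Tax1bp1 passed (0.21; edgeR, adjusted p = 0.00341), and within numbers 4 to 6 it did not (0.09). Nbr1, a p62-related receptor for ubiquitinated cargo and peroxisomes, had a log2 fold change of 0.21 ± 0.25, and its BAM15 libraries split by number as described further on. For all 5 receptors the log2 fold change was above 0, with 0.16 the lowest.

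**Figure D2:**
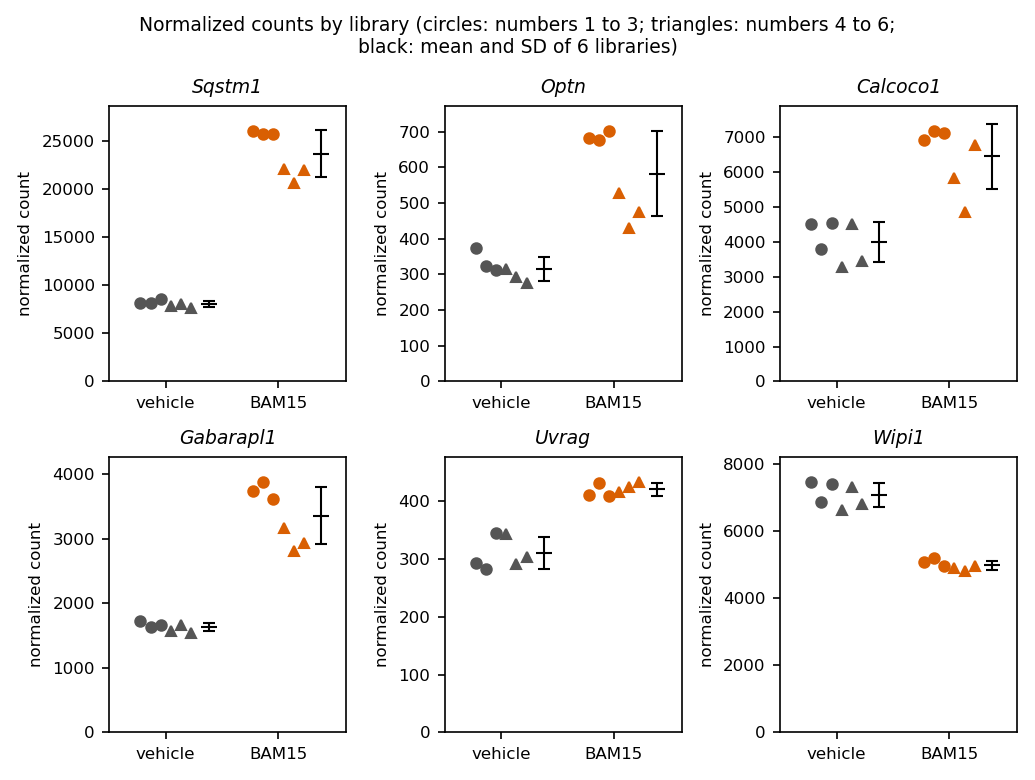
Normalized counts in each library (y axes from 0) for 6 members, vehicle in grey and BAM15 in orange, with circles for library numbers 1 to 3 and triangles for 4 to 6. Black marks give the mean and SD of 6 libraries, and in all 6 panels the 2 conditions do not overlap, with Wipi1 lower and the other genes higher in BAM15 libraries.

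Among the 11 initiation genes 2 rose, 1 fell and 8 did not pass, and the median log2 fold change was -0.04. Over all tested genes 22.0% rose and 20.3% fell. In the ULK complex, which receives signals from mTORC1 and AMPK, Atg13 rose and Ulk2 fell. Atg13 encodes the adaptor that links the kinase to its scaffold. In vehicle libraries it had 492, 527 and 576 normalized counts, and in BAM15 libraries 633, 691 and 721 (lowest, median and highest), and the conditions did not overlap. The log2 fold change of Atg13 was 0.37 ± 0.06 (SE, n = 6 per condition; edgeR, adjusted p = 8.45e-05), a 1.29-fold increase. Ulk2 encodes a paralogue of the kinase ULK1. Its log2 fold change was -0.21 ± 0.06 (edgeR, adjusted p = 0.00974), just inside the threshold, and it did not pass within numbers 4 to 6 alone. The lowest vehicle value of Ulk2 (849.9 normalized counts) lay just under its highest BAM15 value (850.2), and all 6 BAM15 libraries were below the vehicle mean.

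Ulk1, the kinase that AMPK phosphorylates, did not pass over the 12 libraries, with a log2 fold change of -0.37 ± 0.15 (edgeR, adjusted p = 0.0459). Its normalized counts were 1158, 1380 and 1471 in vehicle and 708.7, 1000.3 and 1425 in BAM15 libraries. BAM15 libraries 1 to 3 (708.7 to 878.1) all lay below every vehicle library, while BAM15 libraries 4 to 6 (1123 to 1425) reached into the vehicle range. Ulk1 had a log2 fold change of -0.63 in numbers 1 to 3 (edgeR, adjusted p = 2.48e-06) and of -0.20 in numbers 4 to 6 (adjusted p = 0.0980). The difference of the 2 changes did not pass (edgeR interaction test, adjusted p = 0.0657). With the 2 sets of numbers as a block in the fit, Ulk1 passed, with a log2 fold change of -0.40 (edgeR, adjusted p = 7.33e-04). Rb1cc1, which encodes the scaffold FIP200, and Atg101, which encodes the partner of ATG13, had log2 fold changes of 0.03 ± 0.06 and -0.04 ± 0.09 (SE).

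Of the 6 genes of the PI3K complex, which makes the phosphatidylinositol 3-phosphate that marks the site of membrane growth, 1 rose and 0 fell. At an unadjusted p-value below 0.05 edgeR placed 2 of them lower, and DESeq2 and limma-voom also called 0 lower. Uvrag encodes the subunit that defines the endosomal form of the complex. Normalized counts of Uvrag were 283, 298 and 346 in vehicle and 409, 420 and 434 in BAM15 libraries, and its BAM15 libraries were the most alike of any member, with a coefficient of variation of 2.54%. This increase was 1.36-fold, with a log2 fold change of 0.44 ± 0.07 (SE, n = 6 per condition; edgeR, adjusted p = 5.85e-05), and it was 0.43 within both sets of numbers. Atg14, the subunit that takes the place of UVRAG in the autophagy-specific form, had a log2 fold change of 0.04 ± 0.13. Becn1, which encodes the shared subunit Beclin 1, stood at 0.00 ± 0.05, with means of 2094 and 2095 normalized counts. Cntd1, a gene on the other strand, has exons over 297 of the final 400 bases of the Becn1 transcript. The deposited table does not list Cntd1, and the strand used for counting is not given. Pik3c3, the lipid kinase VPS34, Pik3r4, its regulatory subunit VPS15, and Ambra1, a Beclin 1 regulator, had log2 fold changes of -0.20, -0.13 and -0.23, and none of these passed. The 6 BAM15 libraries of Pik3c3 (214 to 249) nevertheless lay below all 6 vehicle libraries (250 to 296).

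Among the 5 membrane supply genes 2 rose, 1 fell and 2 did not pass, where 22.0% of all tested genes rose and 20.3% fell. Wipi1 and Wipi2 encode related phosphatidylinositol 3-phosphate binding proteins of the growing membrane, and they moved in opposite directions. Normalized counts of Wipi1 were 6628, 7089 and 7480 in vehicle and 4812, 4957 and 5204 in BAM15 libraries (lowest, median and highest). It was the most strongly lowered of the 36 genes, with no overlap between conditions. Its log2 fold change was -0.51 ± 0.05 (SE, n = 6 per condition; edgeR, adjusted p = 3.93e-07), and it was -0.52 within numbers 1 to 3 and -0.51 within numbers 4 to 6. Wipi2, the protein that recruits ATG16L1, had a log2 fold change of 0.33 ± 0.08 (edgeR, adjusted p = 0.00246), with all 6 BAM15 libraries above the vehicle mean but with overlap between the conditions. Within numbers 4 to 6 alone Wipi2 did not pass, with a log2 fold change of 0.18.

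Atg9a encodes the transmembrane scramblase of the vesicles that seed the autophagosome. Its normalized counts were 3.82, 8.03 and 12.8 in vehicle and 15.0, 23.6 and 36.7 in BAM15 libraries, from 4 to 12 reads per vehicle library and 16 to 39 per BAM15 library. The conditions did not overlap, and the log2 fold change of 1.65 ± 0.32 (SE, n = 6 per condition; edgeR, adjusted p = 5.10e-04) was the largest of the 36 genes. Its base mean of 16.5 normalized counts left it outside the threshold of 50, and within numbers 4 to 6 alone it did not pass (log2 fold change 1.39). Atg9a (chr1:75180860-75192196, minus strand, GRCm38) shares the whole last 400 bases of its transcript with Gm29253, a gene annotated on the same strand, and reads there cannot be told apart by sequence. Atg2a and Atg2b encode the lipid transfer proteins and had log2 fold changes of 0.07 ± 0.10 and 0.26 ± 0.24.

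Of the 15 conjugation genes 4 rose, 4 fell and 7 did not pass, where 22.0% of all tested genes rose and 20.3% fell. The 10 enzymes and conjugation partners held all 4 decreases and 2 of the increases. Atg7 encodes the E1-like enzyme that activates both ATG12 and the ATG8 proteins. Its normalized counts were 289, 349 and 363 in vehicle and 402, 438 and 497 in BAM15 libraries, without overlap. Atg7 rose 1.30-fold, with a log2 fold change of 0.38 ± 0.08 (SE, n = 6 per condition; edgeR, adjusted p = 7.36e-04), though within numbers 4 to 6 alone it did not pass (0.32). Atg10 encodes the E2-like enzyme that passes ATG12 to ATG5. Normalized counts of Atg10 were 265, 292 and 315 in vehicle and 320, 357 and 417 in BAM15 libraries, also without overlap. It rose 1.26-fold, with a log2 fold change of 0.33 ± 0.08 (edgeR, adjusted p = 0.00222). It was 0.17 within numbers 1 to 3, which did not pass, and 0.48 within numbers 4 to 6, and it did not pass with scaling by library size only (edgeR, adjusted p = 0.0197).

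The 4 ATG4 genes encode the cysteine proteases that expose the terminal glycine of newly made ATG8 proteins and later release them from the membrane. Of these Atg4a, Atg4b and Atg4d fell, and Atg4c, the least counted with a base mean of 35.8, did not pass (log2 fold change 0.17 ± 0.14, SE). For Atg4d the normalized counts were 216, 258 and 297 in vehicle and 155, 180 and 223 in BAM15 libraries, so the ranges overlapped at one end. Its log2 fold change was -0.45 ± 0.10 (SE, n = 6 per condition; edgeR, adjusted p = 0.00207), with -0.24 within numbers 1 to 3, which did not pass, and -0.69 within numbers 4 to 6. Atg4a had 259, 283 and 327 normalized counts in vehicle and 182, 211 and 255 in BAM15 libraries, without overlap. The log2 fold change of Atg4a was -0.39 ± 0.09 (edgeR, adjusted p = 0.00188), and within numbers 4 to 6 alone it was -0.30 and did not pass. Near the 3′ end of Atg4a (its final 400 bases), 27.4% of stretches 50 bases long also occur in the pseudogene Atg4a-ps. Reads from such stretches cannot be told apart by sequence. Atg4b, the family member with the broadest action on ATG8 proteins, had a log2 fold change of -0.25 ± 0.07 (edgeR, adjusted p = 0.00556), and passed within neither set of 3 numbers alone.

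Atg5, which joins with ATG12, fell slightly, with a log2 fold change of -0.22 ± 0.05 (edgeR, adjusted p = 0.00266), and passed within neither set of numbers alone (-0.18 and -0.27). Its vehicle libraries were the most alike of any member, with a coefficient of variation of 1.55%, and all of its BAM15 values (650 to 774) lay below all of its vehicle values (811 to 845). Atg12 and Atg16l1, the other parts of that conjugate, had log2 fold changes of 0.13 ± 0.07 and 0.14 ± 0.15 and did not pass. Atg3, the E2-like enzyme that passes ATG8 proteins to phosphatidylethanolamine, had one of 0.24 ± 0.17 and did not pass over the 12 libraries.

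ATG8 proteins are the ubiquitin-like proteins that end up on the membrane, and Gabarapl1 and Map1lc3b rose among the 5 genes that encode them. By edgeR, DESeq2 and limma-voom 0 of them passed as lower, and 1 was lower at an unadjusted p-value below 0.05, Gabarapl2. Gabarapl1 encodes a member of the GABARAP subfamily. Its normalized counts were 1534, 1650 and 1718 in vehicle and 2814, 3390 and 3883 in BAM15 libraries (lowest, median and highest). No BAM15 library came near the vehicle range, and BAM15 libraries 1 to 3 held the 3 highest values. Gabarapl1 rose 2.06-fold, with a log2 fold change of 1.04 ± 0.08 (SE, n = 6 per condition; edgeR, adjusted p = 3.46e-08). The log2 fold change was 1.16 in numbers 1 to 3 and 0.89 in numbers 4 to 6, the latter under 2-fold. Without BAM15 replicate 2 it was 0.997, also just under 2-fold. Gabarapl1 lies at chr6:129533160-129542346 on the plus strand.

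Map1lc3b encodes LC3B, the form most often followed as a marker of autophagosomes. It rose, with a log2 fold change of 0.29 ± 0.06 (edgeR, adjusted p = 6.07e-04), from 4449 to 5217 normalized counts in vehicle to 5463 to 6409 in BAM15 libraries, without overlap. Within numbers 1 to 3 its log2 fold change was 0.36, and within numbers 4 to 6 it was 0.19 and did not pass. Map1lc3a, which encodes LC3A, and Gabarap had log2 fold changes of 0.01 ± 0.09 and 0.09 ± 0.05, and Gabarapl2, which encodes GATE-16, had one of -0.24 ± 0.08 (edgeR, adjusted p = 0.0269). None of these 3 passed, but with the 2 sets of numbers as a block Gabarapl2 did (edgeR, adjusted p = 0.00392).

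The make-up of the ATG8 transcripts shifted accordingly. Because QuantSeq reads start near the 3′ end, about 1 read is expected per sampled transcript whatever its length, and shares of reads are compared here only for the same gene between conditions. Gabarapl1 made up 9.11% ± 0.28 of the reads of the 5 genes in vehicle and 16.0% ± 0.88 in BAM15 libraries (SD, n = 6 each), with ranges of 8.78% to 9.48% and 14.8% to 16.9%. The share of Map1lc3a was 38.1% ± 0.41 in vehicle and 32.8% ± 2.55 in BAM15 libraries, and that of Gabarapl2 was 4.57% ± 0.40 and 3.33% ± 0.27, in both cases without overlap. The 5 shares make up a fixed whole, so a larger share of Gabarapl1 lowers the others. Map1lc3a itself had means of 6820 normalized counts in vehicle and 6885 in BAM15 libraries. Shares of Map1lc3b (27.2% ± 0.85 and 28.6% ± 1.04) and Gabarap (21.0% ± 0.98 and 19.3% ± 2.48) overlapped between the conditions. The summed normalized count of the 5 genes was 17909 ± 534 in vehicle and 20875 ± 1735 in BAM15 libraries, and every BAM15 sum (18993 to 22943) exceeded every vehicle sum (17260 to 18527).

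**Figure D3:**
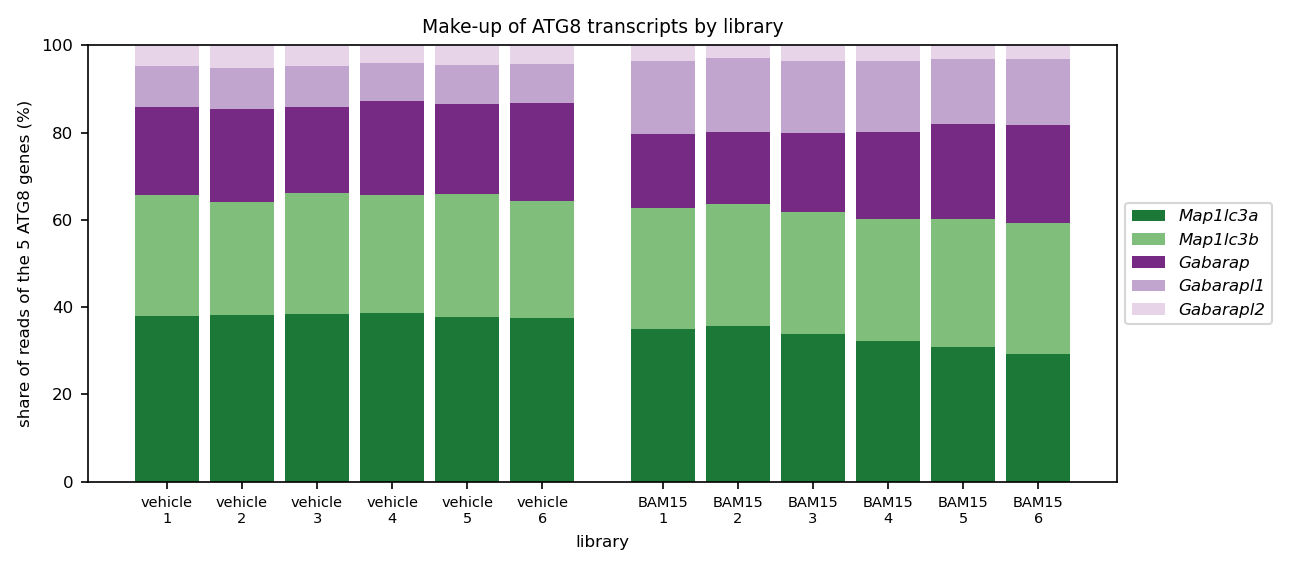
Share of the reads of the 5 ATG8 genes (y axis, %) that each gene took in each of the 12 libraries (x axis). The Gabarapl1 band covers 8.78% to 9.48% in vehicle and 14.8% to 16.9% in BAM15 libraries, and the Map1lc3a band narrows from 37.5% to 38.6% to 29.2% to 35.8%. Shares make up a fixed whole, and the log2 fold change of Map1lc3a itself was 0.01.

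The promoters of Sqstm1 and Gabarapl1, the members past all 3 thresholds, are shown because no other member passed the test, the base mean and the 2-fold threshold together (Atg9a also changed by more than 2-fold but had too few counts). Each line gives the 250 bases before the RefSeq start of the gene (GRCm38.p6), 5′ to 3′ on the strand of the gene, with GC boxes (GGGCGG on either strand) in capitals. The Sqstm1 stretch is chr11:50210821-50211070 on the minus strand and the Gabarapl1 stretch is chr6:129532942-129533191 on the plus strand.
Sqstm1: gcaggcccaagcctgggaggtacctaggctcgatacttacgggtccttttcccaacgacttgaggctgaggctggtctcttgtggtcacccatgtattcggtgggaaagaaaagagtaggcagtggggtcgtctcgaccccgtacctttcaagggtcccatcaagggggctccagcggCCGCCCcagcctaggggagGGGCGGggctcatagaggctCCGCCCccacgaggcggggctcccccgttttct
Gabarapl1: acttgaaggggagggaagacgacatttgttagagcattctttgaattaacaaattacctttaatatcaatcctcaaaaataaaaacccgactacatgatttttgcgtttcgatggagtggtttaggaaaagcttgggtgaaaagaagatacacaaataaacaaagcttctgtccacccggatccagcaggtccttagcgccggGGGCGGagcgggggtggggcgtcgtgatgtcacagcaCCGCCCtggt
GC boxes began 72, 53 and 33 bases before the RefSeq start in Sqstm1 and 47 and 10 bases before it in Gabarapl1. GENCODE M21 places the starts at 50210827 (Sqstm1) and 129533160 (Gabarapl1), inside the stretches shown. The final bases of both stretches, and the Gabarapl1 GC box at 10, thus lie within the genes as GENCODE gives them. RefSeq promoters were found for 30 of the 36 genes, with 34 entries, and GC boxes occurred in 19 of the 34 and in 32.7% of all 32851 promoters of this length. The C/EBP-ATF response element TGATGNAA, which ATF4 and CHOP can bind, occurred in 0 of the 34 and in 3.45% of all promoters, searched on both strands. The antioxidant response element TGACNNNGC occurred in 3 (Atg13, Tax1bp1 and Ulk2; 10.2% of all), and the E-box core CACGTG, which TFEB and related factors bind, in 3 (Atg3, Atg5 and Atg7; 6.02% of all). The FoxO site GTAAACA and the cAMP response element TGACGTCA occurred in 0 (3.17% and 1.55% of all), and the TATA box TATAAA, searched on the strand of the gene, in 1, Atg4a (7.59% of all). These are matches of letters in a short window and say nothing of binding.

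BAM15 libraries with the same treatment label differed among themselves for several members. The median coefficient of variation over all tested genes was 9.81% in vehicle and 14.8% in BAM15 libraries, and among the members it reached 43.9% for Nbr1, 43.2% for Atg2b and 31.5% for Atg3 in BAM15 libraries. Within numbers 1 to 3, 16 members passed (44.4% of all genes tested there), and within numbers 4 to 6, 11 passed (33.2%). A test of the difference between the 2 changes passed for 4 members at an adjusted p-value below 0.05 (edgeR interaction test) and for 2.66% of all genes. The 2 sets were seen apart in these same libraries before the test and no label sets them apart, so these p-values are not independent evidence of the split. Of the 339 genes that passed, 273 had the higher change in numbers 4 to 6.

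Nbr1 had 930.8, 948.3 and 1075 normalized counts in vehicle libraries 1 to 3 and 1038, 1193 and 1256 in vehicle libraries 4 to 6, in ascending order. In BAM15 libraries 1 to 3 it had 645, 853.7 and 872.7, and in libraries 4 to 6 it had 1327, 1743 and 2004. Its BAM15 values thus lay below all vehicle values in one set of numbers and above all of them in the other. The log2 fold change was -0.32 ± 0.10 within numbers 1 to 3 and 0.53 ± 0.14 within numbers 4 to 6 (SE), a difference of 0.86 (edgeR, adjusted p = 0.0488).

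Atg2b was 303 to 338 in vehicle libraries 1 to 3 and 359 to 412 in vehicle libraries 4 to 6, and 232 to 292 and 457 to 652 in the corresponding BAM15 libraries. It showed the same opposed pattern, with log2 fold changes of -0.26 ± 0.11 and 0.57 ± 0.13 and a difference of 0.84 (edgeR, adjusted p = 0.0442). Atg3 was 494 to 588 and 518 to 606 in vehicle, and 446 to 517 and 648 to 942 in BAM15 libraries. The log2 fold changes of Atg3 were -0.16 ± 0.09 and 0.53 ± 0.13, and the difference was 0.69 (edgeR, adjusted p = 0.0452). Map1lc3a went the other way, with 7374 to 8203 normalized counts in BAM15 libraries 1 to 3 and 5691 to 6294 in BAM15 libraries 4 to 6, against 6514 to 7011 over all vehicle libraries. Its log2 fold changes were 0.19 ± 0.06 and -0.20 ± 0.08, a difference of -0.39 (edgeR, adjusted p = 0.0444). None of these 4 members passed over the 12 libraries. The count of 4 depended on single libraries: it was 10 without BAM15 replicate 4, 4 without vehicle replicate 3 (Atg16l1 in place of Nbr1) and was 0 without any other single library, with 10 to 14 members at an unadjusted p-value below 0.05 by edgeR in those fits, and limma-voom gave 3 over all 12 libraries.

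**Figure D4:**
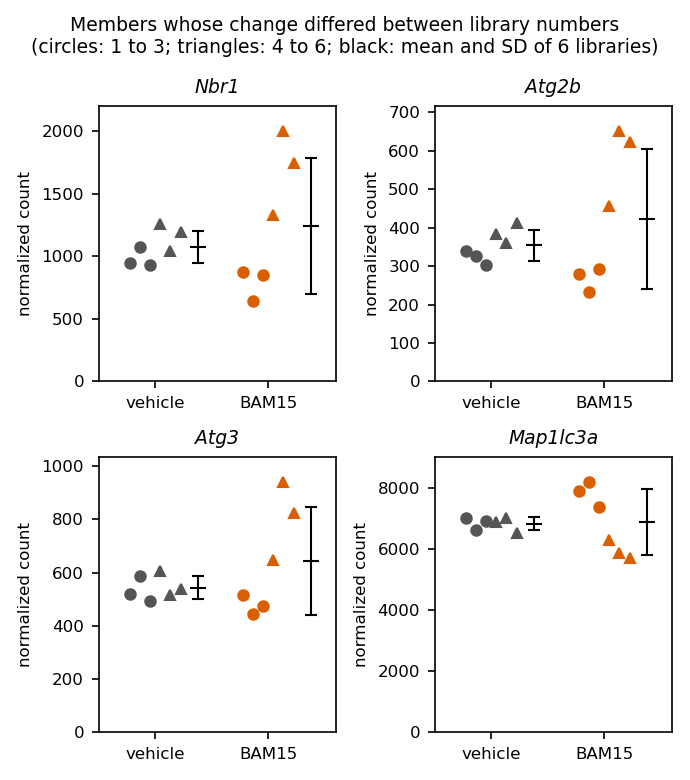
Normalized counts in each library (y axes from 0) for the 4 members whose change differed between library numbers, vehicle in grey and BAM15 in orange. BAM15 circles (numbers 1 to 3) lie below BAM15 triangles (numbers 4 to 6) for Nbr1, Atg2b and Atg3 and above them for Map1lc3a, and black marks give the mean and SD of 6 libraries.

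**Figure D5:**
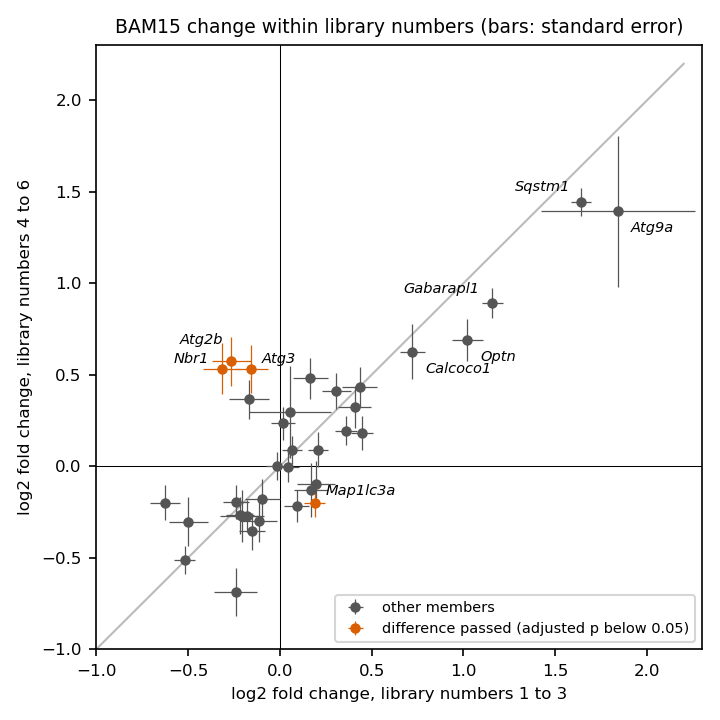
Log2 fold change of the 36 genes within library numbers 4 to 6 (y axis) against that within numbers 1 to 3 (x axis), with standard errors and the line of equal change. Sqstm1, Gabarapl1, Optn, Calcoco1 and Atg9a lie above 0.6 on both axes, and Nbr1, Atg2b and Atg3 (orange) lie left of 0 and above 0.5.

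Further autophagy genes outside the 36 were counted in 3 lists. Of 15 other early factors, 5 rose and 0 fell by edgeR, DESeq2 and limma-voom, and 2 were lower at an unadjusted p-value below 0.05 by edgeR. Of 14 genes of autophagosome fusion 3 rose and 2 fell, and of 15 other selective receptors 4 rose and 5 fell. By DESeq2 3 of the fusion genes and 7 of these receptors fell, and by limma-voom 2 and 6. The 5 receptors that fell by edgeR were Bnip3, Bnip3l, Bcl2l13, Rtn3 and Wdfy3, with log2 fold changes of -0.68 to -0.43. The median log2 fold change over these 44 genes was 0.02. By edgeR 12 of them rose and 7 fell, where 22.0% of all tested genes rose and 20.3% fell. Past all 3 thresholds were Epg5, a tether between autophagosomes and lysosomes, Tex264, a receptor for the endoplasmic reticulum, and Stbd1, a receptor for glycogen. Among all tested genes 3.70% were higher past these thresholds. Epg5 had 50.5, 64.2 and 86.6 normalized counts in vehicle and 106, 219 and 578 in BAM15 libraries, with a log2 fold change of 2.11 ± 0.42 (edgeR, adjusted p = 0.00101). That of Epg5 was 1.14 within numbers 1 to 3 and 2.60 within numbers 4 to 6, a difference that did not pass (edgeR, adjusted p = 0.0551). Stbd1 had 189, 208 and 265 normalized counts in vehicle and 645, 1204 and 2057 in BAM15 libraries, with a log2 fold change of 2.57 ± 0.27 (edgeR, adjusted p = 5.12e-06). That of Stbd1 was 2.07 within numbers 1 to 3 and 2.86 within numbers 4 to 6, and the difference of 0.80 passed (edgeR, adjusted p = 0.0488). For Tex264 the values were 949.8, 1049 and 1116 in vehicle and 2162, 2272 and 2425 in BAM15 libraries, with a log2 fold change of 1.13 ± 0.05 (edgeR, adjusted p = 1.63e-10). None of these 3 genes overlapped between the conditions.

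Of 9 transcription factors known to act on autophagy genes, 6 rose and 1 fell, where 22.0% of all tested genes rose and 20.3% fell. Atf4 and Ddit3, which encodes CHOP, are factors of the integrated stress response and were past all 3 thresholds. Atf4 had 8657, 9902 and 10203 normalized counts in vehicle and 31843, 41919 and 48368 in BAM15 libraries, with a log2 fold change of 2.10 ± 0.10 (edgeR, adjusted p = 2.97e-10). Ddit3 had 687, 808 and 883 in vehicle and 12219, 16402 and 19011 in BAM15 libraries, with a log2 fold change of 4.31 ± 0.13 (edgeR, adjusted p = 9.44e-13). Mitf, Tfe3, Nfe2l2 and Foxo3 rose by 0.47 to 0.71 on the log2 scale, Foxo1 had a log2 fold change of -0.37 and fell, and Tfeb (-0.02) and Zkscan3 (0.26) did not pass. The members known as targets of these factors went in both directions, as did all tested genes (22.0% higher and 20.3% lower). Of 12 members known as ATF4 or CHOP targets, 4 rose (Sqstm1, Atg7, Map1lc3b and Atg10), 1 fell (Atg5) and 7 did not pass. Of 4 members known as TFEB targets, Uvrag, Map1lc3b and Sqstm1 rose and Wipi1 fell. Of 7 members known as FoxO3 targets, Map1lc3b and Gabarapl1 rose, Ulk2 and Atg4b fell, and 3 did not pass.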

How the data were processed

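RNA of 6 vehicle and 6 BAM15 libraries was analysed. The authors prepared 3′ QuantSeq libraries and deposited raw counts of reads per Ensembl gene, which are whole numbers. Per the labels, DESeq2 1.22.2 and the builds GRCm38 and mm10 were used, and the aligner's settings and the strand used for counting are not given in the sources used here. The authors also deposited a normalized signal, in which each library's counts are divided by a size factor, and it served for 1 alternative only. The deposited tables hold 11 further columns of other samples, which were not used here. For 2260 of 2293 identifiers without a symbol, symbols were taken from GENCODE M21, which also gave positions.

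The counts were fitted with edgeR 4.0.16 (R 4.3.3), using filterByExpr (2383 genes removed), TMM scaling (factors 0.932 to 1.04), a robust quasi-likelihood fit with the condition as its only term, and Benjamini-Hochberg adjustment over 12730 genes. "Passed", "rose" and "fell" mean an adjusted p-value below 0.01. The 3 thresholds, after the study's methods, add a base mean above 50 and more than 2-fold. A normalized count is the count scaled by TMM to the mean library size, and 3 counts correspond to 2.64 to 3.50 of these. The standard error was taken as the log2 fold change divided by the square root of F. A fit with condition, numbers 1 to 3 or 4 to 6 and their interaction gave the difference between the 2 sets of numbers. Alternatives used DESeq2 1.42.0, limma 3.58.1 (voom, and log2 of the normalized signal + 1), other scalings, filters, blocks and thresholds, and each library left out. The scripts were tested on simulated data, and no 2 libraries of a condition agreed within sampling noise. In these simulations edgeR recovered 97 of 100 genes changed by 1.5 on the log2 scale and 65 of 100 changed by 0.6. The interaction test recovered 89 of 100 and 9 of 100, so differences of the smaller size can be missed by it. The simulated spread was estimated by condition only and so took in the split between the 2 sets of numbers. These recoveries of the interaction test may therefore be too low for the real fit. Plots were made with matplotlib 3.10.9 (Python 3.11.15).

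All 36 members are named. Full values are given for members past the 3 thresholds and for the 12 with the largest change among those that passed, and for genes of the other lists past the 3 thresholds. Members and lists were chosen with earlier results of these data known. Values of Ulk1 and of the overlapping gene Mrnip were added after they were seen.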

Additional observations from a re-analysis of the deposited data

Results flagged for a closer look

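A single library stood far from the other 5 of its condition for 3 members. Ulk2 had 1015 normalized counts in vehicle replicate 4, with the other vehicle libraries at 849.9 to 908.3. Rb1cc1 had 2929 in vehicle replicate 5, with the others at 3252 to 3422. Atg7 had 289 in vehicle replicate 4, with the others at 338.2 to 362.8. These are 3 of 72 sets of 6 libraries checked, and chance alone gives about 1 in 20.

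For 4 members the BAM15 change differed between library numbers 4 to 6 and 1 to 3 by the interaction test. The difference (4 to 6 minus 1 to 3, log2 scale) was 0.8448 for Atg2b, 0.6947 for Atg3, 0.8563 for Nbr1 and -0.3864 for Map1lc3a. No label names a batch for these numbers, and the cause was not tested.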

How the results depend on the processing

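Over 25 alternative fits no member that passed reversed its direction. Of the 17 members that passed, 7 passed in every one (Atg13, Uvrag, Wipi1, Gabarapl1, Sqstm1, Optn and Calcoco1). Ulk2 was lost in 14 and Atg4b in 7. Atg9a was tested in 24, since it is removed when 10 counts are asked for in every library, and it was lost within numbers 4 to 6 alone. Of the 19 that did not pass, 8 passed in at least 1 alternative and 10 changed sign in at least 1.

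The count of members higher past the 3 thresholds (2) was 1 with scaling by library size only, within numbers 4 to 6 and by limma on the normalized signal, and 4 with more than 1.5-fold. Leaving out 1 library gave 1 to 2, with 1 without BAM15 replicate 2. The count of members that fell (6) was 2 within numbers 4 to 6 and 10 at an adjusted p-value below 0.05, and 4 to 6 with 1 library left out. With 1 library left out the count that rose was 11 and the count lower past the 3 thresholds was 0 each time. The count whose change differed between the 2 sets of numbers (4) ranged from 0 to 10 with 1 library left out. It was 10 without BAM15 replicate 4, 4 without vehicle replicate 3 and 0 without any other single library, where edgeR still gave 10 to 14 members at an unadjusted p-value below 0.05. Limma-voom gave 3.

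Libraries with the same number did not deviate together in every pair (correlations -0.07 to 0.29), so the numbers were not taken to pair the libraries. BAM15 libraries 1 to 3 each correlated best with vehicle replicate 3 and libraries 4 to 6 with vehicle replicate 6. The cause of this was not tested. A replicate block gave 17 members, 16 of them shared, with 11 higher and 6 lower (Ulk1 gained at -0.41, adjusted p = 0.00305, and Atg4b lost, adjusted p = 0.0130), and 5292 genes in place of 5379. A block of numbers 1 to 3 and 4 to 6 gave 19 members, all 17 among them, with Ulk1 and Gabarapl2 gained.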
